A study of Mus musculus with 6 samples.

Results

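Prok2 encodes prokineticin 2, also known as Bv8. It was followed through the 1 probe set identified as Prok2 for this work (probe set ID.1419681_A_AT), of 45101 probe sets in the deposited table. This probe set was chosen by its measured log2 levels on these same arrays, where null and wild type differ, so the values below describe that difference and none of them tests it. The deposited table carries no gene names, and the identity of this probe set was not checked against an annotation of the array. RNA came from mouse neutrophils grown in culture from bone marrow progenitors, either wild type or miR-223 null, with 3 arrays per genotype. Cells of both genotypes had the same culture. It ran for 6 days in a medium for isotope labelling of proteins (SILAC) that held stem cell factor (SCF) and the granulocyte growth factor G-CSF. SCF was then left out for 42 hours, after which live neutrophils were picked with magnetic beads (MACS). The labels do not give the age of the mice, how the null allele was made, or what separates one replicate from the next. The spread between arrays may therefore be technical.

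Prokineticin 2 is a small secreted protein rich in cysteines. It signals through the G protein-coupled receptors Prokr1 and Prokr2. In bone marrow myeloid cells and neutrophils, Prok2 is known as a gene induced by G-CSF through the transcription factor STAT3, and the protein is known to mobilise myeloid cells and to promote the growth of blood vessels, in tumours among other places. In the brain it carries output of the circadian clock in the suprachiasmatic nucleus, where clock factors act on E-boxes before the gene. The microRNA miR-223 is abundant in the granulocyte lineage, and it represses mRNAs that pair with its seed, the bases near its 5′ end.

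The mature strands of the microRNA removed in the null cells are shown because they define the contrast. They were taken from RefSeq for build GRCm38.p6, where they lie on the plus strand at chrX:96242884-96242905 (3p) and chrX:96242842-96242864 (5p). They are written 5′ to 3′, with the seed (bases 2 to 8) in capitals.
mmu-miR-223-3p: uGUCAGUUugucaaauacccca
mmu-miR-223-5p: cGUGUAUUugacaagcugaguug
None of the other mature mouse microRNAs in that table, which holds 1679 names, shares either seed. The array probe sets are not paired with microRNAs here, so the level of miR-223 itself was not analysed, and whether Prok2 mRNA carries a seed site was not tested.

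The bases before the start of Prok2 are shown because the regulators named above, clock factors and STAT3, act through DNA motifs. RefSeq places Prok2 on chromosome 6 between the protein-coding genes Gpr27 and Rybp and lists 3 transcripts for it. The 250 bases before the annotated start lie on the minus strand at chr6:99726393-99726642 (GRCm38.p6), with the canonical E-box in capitals.
Prok2 promoter: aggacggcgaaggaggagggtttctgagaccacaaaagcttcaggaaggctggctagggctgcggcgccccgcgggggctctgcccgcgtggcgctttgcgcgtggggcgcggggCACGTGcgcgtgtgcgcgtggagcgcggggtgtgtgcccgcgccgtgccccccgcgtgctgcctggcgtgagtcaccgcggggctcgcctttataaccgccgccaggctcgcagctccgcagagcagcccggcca
Over the whole tabulated window of 250 bases before and 50 after the start, the E-box CACGTG occurred 1 time, with its first base at position -135 from the start. It was present in 7.15% of the 32851 promoter windows of the same length. The STAT motif TTCNNNGAA had 0 matches there and was present in 8.30% of all windows. Both motifs read the same on either strand, so 1 search covers both. The window was rich in G and C, at 73.7% against a median of 52.7%, and held 42 CpG dinucleotides against a median of 7. These are matches of letters, not evidence of binding, and the arrays measured no binding.

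The Prok2 signal lay above the array median in wild-type neutrophils and was lower on every null array. On the log2 intensity scale, the wild-type arrays read 7.44, 7.24 and 7.19 for replicates 1, 2 and 3. The null arrays read 5.35, 5.49 and 5.85. The groups did not overlap, as was the case with null lower for 8.68% of all kept probe sets. The highest null array, replicate 3, lay 1.34 log2 units below the lowest wild-type array, also replicate 3. The means were 7.29 ± 0.13 (SD, n = 3) in wild type and 5.56 ± 0.26 (SD, n = 3) in null, a difference of -1.73 log2 units. The null signal was thus 30.2% of the wild-type signal, a 3.31-fold difference. In RNA from many bead-selected cells together, fewer cells that express Prok2 and less Prok2 RNA per cell cannot be told apart.

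**Figure D1:**
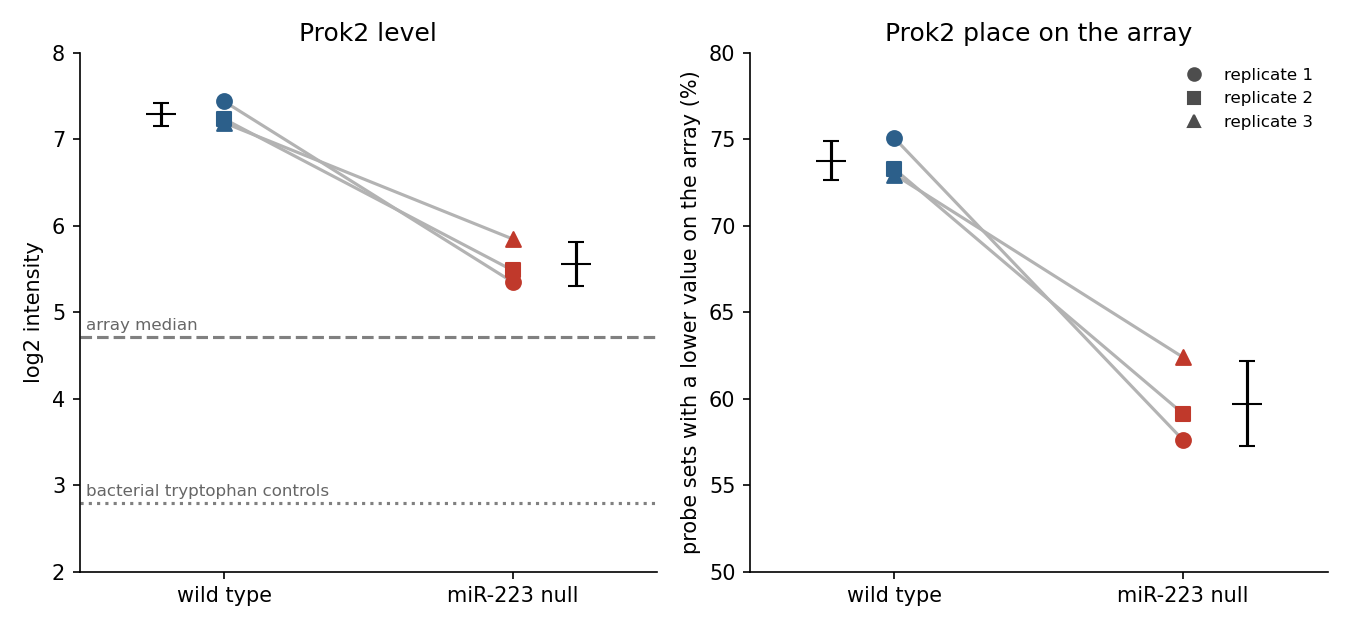
Prok2 on the 6 arrays as log2 intensity (left) and as the percent of probe sets on the same array with a lower value (right); the axes do not start at 0. Points are arrays, grey lines join arrays with the same replicate number, and black bars are means ± SD (n = 3). All null points lie below all wild-type points, with means of 5.56 and 7.29, and above the array median.

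The lower null level was still above that of the bacterial control probe sets. Probe sets for bacterial tryptophan sequences, which match no mouse transcript, averaged 2.80 ± 0.04 (SD, n = 3) on null and 2.80 ± 0.05 (SD, n = 3) on wild-type arrays. Prok2 stood 2.58, 2.71 and 3.00 log2 units above them on null arrays 1, 2 and 3. On wild-type arrays it stood 4.58, 4.46 and 4.41 units above them. The array medians, between 4.71 and 4.72, lay closer to the null Prok2 level than these controls did. No detection call was made, so the presence of Prok2 RNA in null cells was not tested. Background left in the values would add to every signal and so narrow a ratio most where the signal is low. Whether the deposited values were already corrected for background is not given. With the tryptophan signal of each array subtracted before taking logarithms, a calculation chosen after seeing the data, the null signal was 26.9% of the wild-type signal, a 3.72-fold difference (-1.90 log2 units).

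The place of Prok2 within each array moved with its level. From the brightest down, it ranked 11224, 12028 and 12174 among 45037 probe sets on wild-type arrays 1, 2 and 3. It ranked 19088, 18401 and 16932 on null arrays 1, 2 and 3, further down but still above the array median. Between 73.0% and 75.1% of probe sets were dimmer than Prok2 on wild-type arrays, and between 57.6% and 62.4% on null arrays. A rank depends on how well each probe set binds as well as on RNA amount, so it places this probe set on the array and does not order transcripts by abundance. The arrays shared a scale, as their medians lay between 4.71 and 4.72 and their 75th percentiles between 7.41 and 7.46.

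The size of the difference varied between replicate numbers. The null minus wild-type difference was -2.09 log2 units in replicate 1, where the null signal was 23.5% of wild type. The differences were -1.75 in replicate 2 and -1.34 in replicate 3, where the null signal was 29.7% and 39.4% of wild type. Expressed as folds, these were 4.26, 3.37 and 2.54. Null was thus lower in all 3 pairs, as it was for 25% of all kept probe sets. The pairs differed in size. The SD of the pair differences was 0.37 log2 units, against 0.29 for unpaired arrays of the same spread within genotype.

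Both ends contributed to the wide pair differences. Null 1 was the lowest null array, at -0.32 log2 units from the mean of null 2 and null 3. Wild-type 1 was the highest wild-type array, 0.23 log2 units above the mean of the other wild-type arrays. Across the table the replicate 1 arrays of both genotypes deviated together (r = 0.70 between their deviations from the genotype means over 27022 probe sets), whereas for Prok2 they deviated in opposite directions. Pairing by replicate number accordingly narrowed the typical probe set and not Prok2. The SD of its pair differences was 1.29 times the value that unpaired arrays of its own spread would give, against a median ratio of 0.665 over all kept probe sets, and 92.5% of them had a lower ratio. Without both replicate 1 arrays, which stand apart from the rest, the Prok2 difference was -1.55 log2 units, and without any single array it lay between -1.87 and -1.62.

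Controls for depth of labelling and for RNA quality were read on the same arrays. The 24 probe sets for spiked poly-A transcripts averaged 8.61 ± 0.29 (SD, n = 3) on null and 8.43 ± 0.31 (SD, n = 3) on wild-type arrays, and their ranges overlapped. For beta-actin, the 3′ probe set exceeded the 5′ probe set by 0.22 ± 0.05 (SD, n = 3) and 0.20 ± 0.05 (SD, n = 3) log2 units on null and wild-type arrays. The transferrin receptor, which brings iron into cells and has control probe sets that carry its name, was also lower in null arrays. Its mean over 3 probe sets was at most 7.65 on null arrays and at least 7.68 on wild-type arrays. By this mean the groups thus lay close but did not overlap, whereas for the 5′ probe set alone they overlapped. Across the arrays this mean correlated with the Prok2 level at r = 0.58. Both were lower in null, so this r partly reports the split by genotype. The null minus wild-type difference of this mean was -0.30, -0.52 and -0.85 log2 units in replicates 1, 2 and 3. This difference was smallest in replicate 1, where that of Prok2 was largest. The part of cell maturity or of other cell types in the Prok2 difference was not tested, since probe sets of marker genes are not named in the deposited table. For the same reason the labelled cell type was not checked against its markers.

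Set against the other probe sets, the Prok2 difference was among the extremes, as its choice implies. After probe sets with a mean below the 40th percentile (4.08 log2 units) were dropped, 27022 remained, and Prok2, with a mean of 6.43, was among them. No overlap with null lower was seen for 2346 of these, or 8.68%. Across the whole table limma called 51 probe sets in either direction at an adjusted p under 0.05 (0.189%), and 2703 (10%) with the replicate number as a block. A null mean lower by 1 log2 unit or more was seen for 36, or 0.133%, of which 27 had no overlap. In the other direction, a null mean higher by 1 log2 unit or more was seen for 46, of which 42 had no overlap. By the difference of means Prok2 was the third lowest, and by the gap between the genotypes it was the second among probe sets that were lower in null. Only 1 probe set was higher in null by as much as Prok2 was lower, and 0 of those higher in null had as wide a gap. Within replicate 1 alone Prok2 was in place 2 from the lowest difference, within replicate 2 in place 11 and within replicate 3 in place 37.

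**Figure D2:**
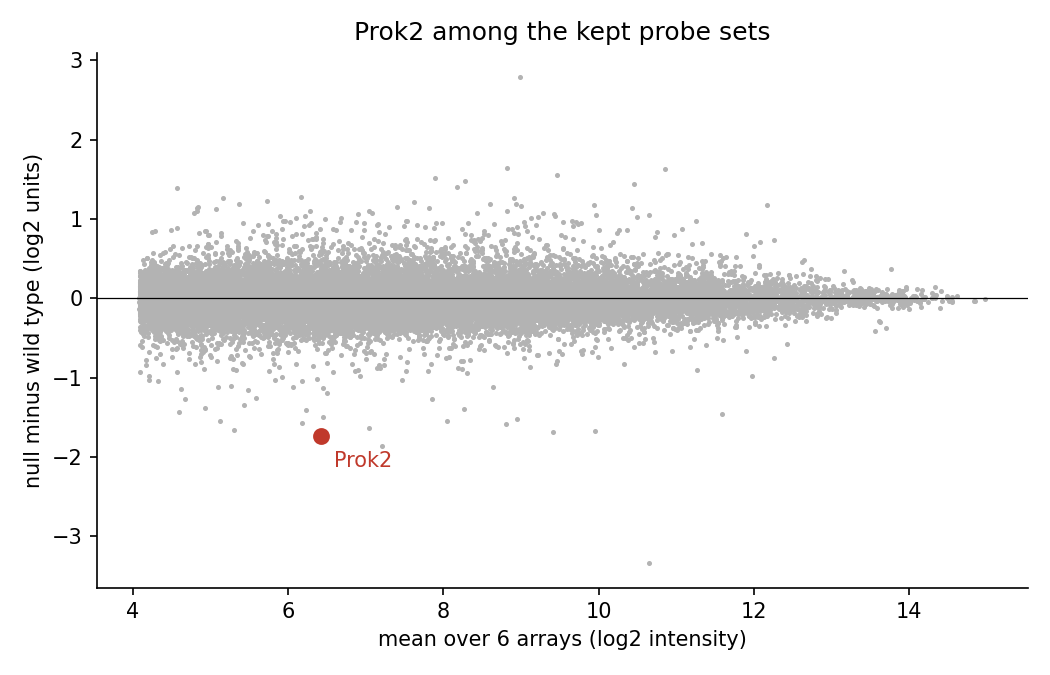
Null minus wild-type difference (log2 units) against the mean over 6 arrays (log2 intensity) for the 27022 kept probe sets, 1 grey point each. Prok2, in red, lies at a mean of 6.43 and a difference of -1.73, below nearly all probe sets of similar mean.

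Probe sets of similar mean show what spread is usual at this signal. Within 0.25 log2 units of the Prok2 mean lay 1771 probe sets, Prok2 included, whose differences had a median size of 0.13 log2 units. The central 95% of these differences ran from -0.45 to 0.48. Prok2 was the lowest of them, and the next lowest was -1.49. Its spread within genotype, by contrast, was ordinary: its pooled SD was 0.20 against a median of 0.17, and 61.9% of these probe sets had a smaller one. The null arrays were the more variable side, with an SD above that of 74.7% of these probe sets, while the wild-type SD was above that of 43.0%.

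The pattern of Prok2 over the 6 arrays was compared with every other kept probe set by Pearson's r, given as a description. The 6 arrays fall into 2 genotypes and a high r mostly reports that split, since the Prok2 level itself correlated at 0.98 with a genotype column. An r of 0.9 or more was found for 533 probe sets (1.97%), and an r of -0.9 or less for 493 (1.82%). Most of them differed between genotypes by far less than Prok2. The median difference of the 533 was -0.28, and 10 of them were lower in null by 1 log2 unit or more. The median difference of the 493 was 0.36, and 32 of them were higher in null by 1 log2 unit or more.

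The probe sets most alike were lower on every null array but did not all keep the order of Prok2 within a genotype. The highest r was that of 1429623_AT (0.998), which read 8.17, 8.15 and 8.15 on wild-type arrays 1 to 3 and 7.91, 7.94 and 7.97 on null arrays 1 to 3. Its difference, -0.21 log2 units, was 12.4% of that of Prok2. Next came 1423192_AT (r = 0.997), with 9.44, 9.42 and 9.39 on wild-type and 9.07, 9.06 and 9.12 on null arrays, a difference of -0.33. Both were thus lower on every null array, by far less than Prok2. The 8 most alike had r between 0.989 and 0.998 and differences between -0.83 and -0.13 log2 units. After the genotype means were removed, r over the 6 arrays still lay between 0.75 and 0.98 for these 8, which were picked for their likeness.

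The most opposite pattern was that of 1439521_AT (r = -0.9997), which was higher on every null array, with 4.26, 4.29 and 4.30 on wild-type and 4.59, 4.56 and 4.51 on null arrays 1 to 3. Its difference was 0.27 log2 units. This probe set was dim, with a mean of 4.42 and every value below the array median. Second was 1417551_AT (r = -0.999), with 8.56, 8.60 and 8.60 on wild-type and 8.86, 8.86 and 8.81 on null arrays, a difference of 0.26. The 5 most opposite differed by 0.26 to 0.49 log2 units. Genes of these probe sets are not named in the deposited table, so nothing is said here of their function.

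**Figure D3:**
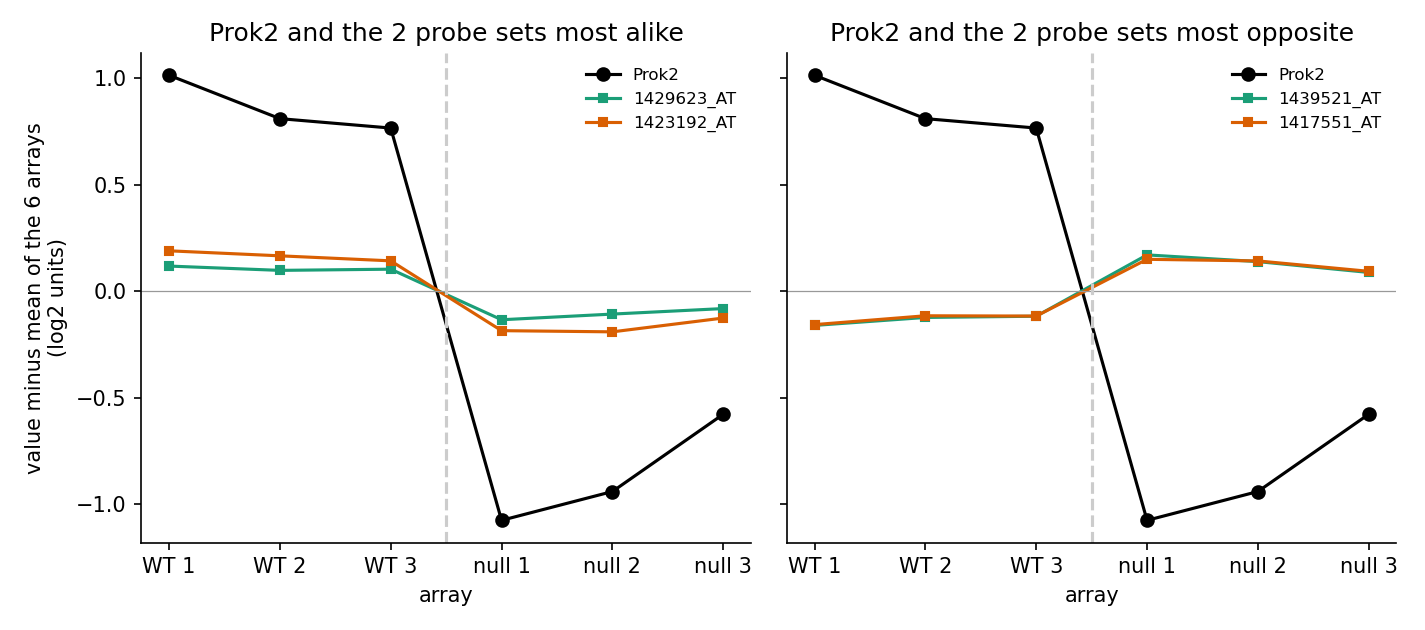
Values of Prok2 and of the 2 probe sets most alike (left) and most opposite (right) on each array, as log2 units from the probe set's own mean over 6 arrays; WT is wild type, and lines only join the points of a probe set. Prok2 spans 2.09 log2 units between its highest and lowest array, while the other probe sets differ between genotypes by far less, with differences of -0.21, -0.33, 0.27 and 0.26.

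Rescaling the arrays left the Prok2 difference nearly as deposited. The deposited arrays already shared a scale, so rescaling had little room to move it. It was -1.72 after quantile normalization and -1.73 after median centring. The largest shifts came from dropping null 3, the null array with the most Prok2 signal, from subtracting background, and from dropping both replicate 1 arrays, and each was smaller than the pooled SD of 0.20. With 3 arrays per genotype, dropping 1 array can never shift the difference by that much. The pooled SD describes the spread of single arrays and is not the uncertainty of the difference.

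**Figure D4:**
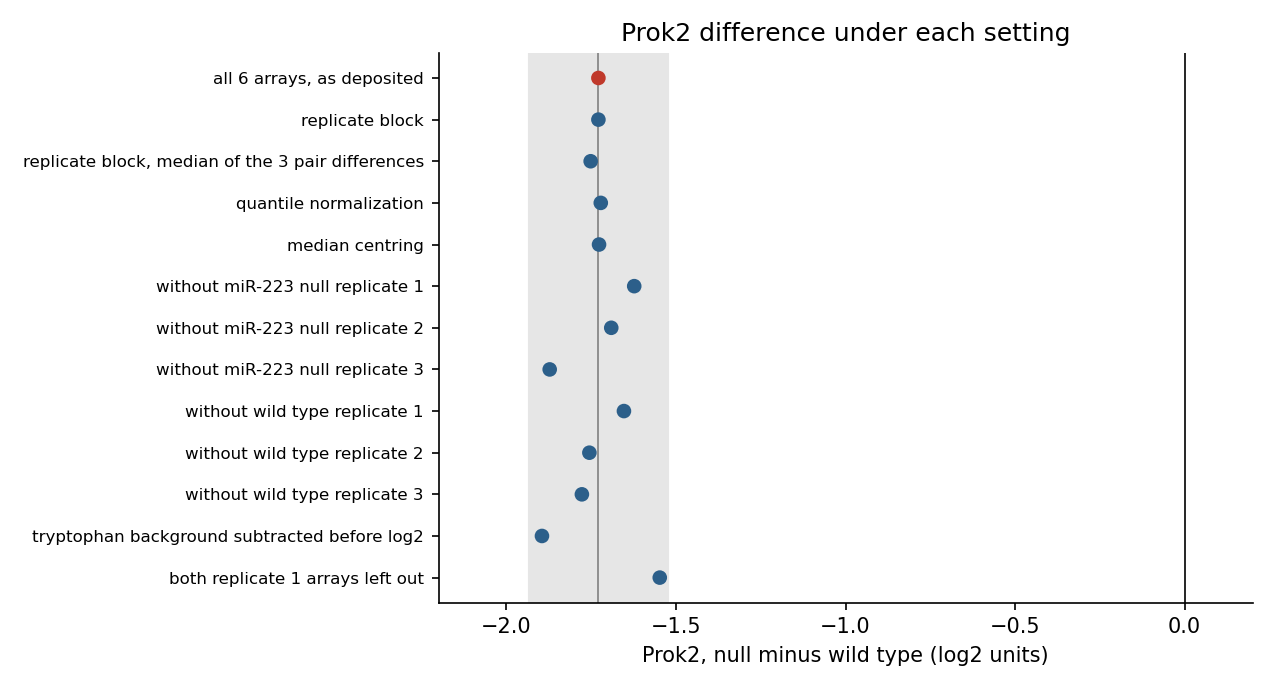
Prok2 difference, null minus wild type (log2 units), under each setting; red is the value as deposited with all 6 arrays, and the grey band is that value ± the pooled SD within genotype (0.20). Every setting gave a value inside the band, from -1.90 to -1.55, and the black line marks 0. The band is the spread of single arrays, not the uncertainty of the difference.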

How the data were processed

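The deposited table holds log2 intensity values, 1 per probe set and array, which the authors had already brought to a common scale. The submitters' processing notes name GCOS, and how background, normalization and probe summary were done is not given in the sources used here. The log2 scale was inferred from the range of the values. Bringing arrays to one scale removes any change in total mRNA, so each difference is relative to the rest of its array.

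Groups and replicate numbers came from the sample titles. The 64 manufacturer's control probe sets were set aside, and probe sets whose mean over 6 arrays reached the 40th percentile entered the fit. Whole-table calls used limma 3.58.1 in R 4.3.3 (lmFit, eBayes with intensity trend, Benjamini-Hochberg adjusted p under 0.05, two-sided). The fit without a block was run on simulated data with independent noise on each array. That simulation held no replicate effect, so it cannot tell how the fit behaves where replicates deviate together. Without covariates 51 of 27022 probe sets were called (0.189%), and with the replicate number as a block 2703 (10%). Deviations of same-numbered arrays correlated at 0.70, 0.30 and 0.48, all above 0.1, so same-numbered arrays were treated as pairs; this pairing comes from the data, not the labels. Null 3 with wild-type 2 (0.41) and null 2 with wild-type 3 (0.21) also exceeded 0.1, so the correlations set replicate 1 apart but do not tell replicates 2 and 3 from each other.

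Levels, ranks and likeness were computed in Python 3.11.15 with pandas 2.3.3. Prok2 is probe set 1419681_A_AT, as stated for this work. The rule for named genes asked for Prok2, genes of 5 lists and of marker lists, neighbouring genes, and the 8 most alike and 5 most opposite probe sets. As the table pairs no probe set with a gene, lists, markers and neighbours were not run, and only 2 identifiers in each direction are given. The planned protein comparison was not made. The gene, lists and rules were chosen with earlier results of these data known. RefSeq (GRCm38.p6) gave sequences and gene order only.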

Additional observations from a re-analysis of the deposited data

How the results depend on the processing

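The Prok2 difference kept its direction and moved by less than the pooled SD of single arrays under every setting run. That SD is not the uncertainty of the difference. Part of this was fixed in advance. With 3 arrays per genotype, leaving out 1 array cannot move the difference by the pooled SD. Groups that do not overlap also keep their direction, and in this balanced design the replicate block returns the same difference. The deposited arrays already shared a scale, so rescaling had little room to move the difference. The Prok2 difference was -1.73 with the replicate block, -1.75 as the median of the 3 pair differences, -1.72 after quantile normalization and -1.73 after median centring. Leaving out 1 array gave -1.87 to -1.62. Settings added after seeing the data gave -1.90 with background subtracted and -1.55 without both replicate 1 arrays. The whole-table count of 51 calls became 2703 with the replicate block and 191 with the block and no intensity trend, and the cause was not tested. It stayed between 38 and 60 under other filters, scalings and without the trend. Leaving out 1 array gave 0 to 58 calls in limma: 0 without null 2 (2064 at an unadjusted p under 0.05) or wild-type 2 (1753), 1 without wild-type 3 and 3 without null 3. With the block, leaving out 1 pair gave 606 (replicate 2), 2045 (replicate 1) and 2319 (replicate 3). Alternatives for genes of the lists were not run, as probe sets are not paired with genes. The number of arrays, 3 per genotype, limits the precision of every value.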
